A study of Bos taurus with 32 samples.

Results

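Coding adenosines in the consensus m6A motif were described in bovine oocytes and preimplantation embryos, from germinal vesicle (GV) oocytes to blastocysts. N6-methyladenosine (m6A) is a methyl mark on adenosines of RNA. It was mapped by m6A-SAC-seq, which labels the mark with an allyl group so that reverse transcription leaves a mutation at the modified base. A site was taken when its gene was protein-coding, its region was coding sequence, its motif was DRACH and its deposited GV score was at least 0.1. These criteria chose 11597 sites in 4001 genes, out of 60417 sites called at GV and 65535 sites in the table. They made up 19.2% of all GV-called sites, 30.1% of the coding ones with a listed motif and 64.0% of the DRACH sites in protein-coding genes. Just inside the threshold, 951 of the sites (8.20%) had GV scores below 0.12, and the lowest was 0.10008. Just outside it, 920 coding DRACH sites in the table had no GV call, with 821 listed at 0 and 99 between 0 and 0.0999. The rows without a GV call belong to large-subunit ribosomal protein genes or to minus-strand MII calls, and the table used here is held only in part, so the 920 do not measure how many sites lack a GV call.

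The 8 groups were immature GV oocytes, metaphase II (MII) oocytes after maturation in culture, and embryos with 2 cells, 4 cells, 8 cells or 16 cells, followed by morulae and blastocysts. All came from abattoir ovaries, embryos were fertilised and cultured in the laboratory, and no group carried a genetic change or a drug treatment. The labels give 2 arms, input and treated, with 2 replicates per arm and stage and 200 cells per stage and replicate. The table holds 1 score per stage, so no value below has a replicate error, no test between stages was possible and the read depth behind a score is unknown. RNA levels are not in the table. A site with no call may lie in a transcript with few reads, and fewer modified molecules and less RNA of the gene cannot be told apart. A score of 0 can also stand for no estimate.

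m6A is placed on pre-mRNA by a writer complex around METTL3 and METTL14, with WTAP, VIRMA, CBLL1 and RBM15 or RBM15B as partners, and is removed by FTO and ALKBH5. YTH domain proteins bind it, and binding by the YTHDF proteins is linked to decay of the transcript. In mammalian mRNA the mark is known to be densest around stop codons and in 3′ untranslated regions (3′UTRs). Coding sites are of interest because ribosomes pass over them and because m6A in codons has been linked to slower decoding and to decay. Oocytes and early embryos rely on stored maternal mRNA, much of which is cleared when the embryonic genome becomes active, in cattle mainly around the 8-cell to 16-cell stages.

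The motif is what all members share by choice. The first base is not C, the second is a purine, then comes the adenosine that carries the mark, then C, and the last base is not G. The 5 most frequent motifs are printed here because scores and calls differed between them, 5′ to 3′, with the scored adenosine in capitals.
motif with most sites: agAct
next in number: agAcc
the first with a double g: ggAct
with a double g and a final a: ggAca
with a double g and a final c: ggAcc
The motif agAct held 2429 sites (20.9%), agAcc 2211, ggAct 1967, ggAca 1517 and ggAcc 986. The motifs that start with t had 936 sites at tgAct, 709 at tgAca and 360 at tgAcc. All 9 motifs with a central GAC together held 11122 sites (95.9%), and the 9 with a central AAC held 475 (4.10%). The motif agAca was listed at only 7 sites, so the numbers per motif may depend on how each motif was called, which was not tested.

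GV scores differed by motif. The median over all sites was 0.282, with quartiles of 0.169 and 0.567 and a highest score of 15.8. The median was 0.184 at agAcc, 0.258 at agAct, 0.283 at ggAcc and 0.39 at ggAct. The ggAca sites had a median of 1.19, and 54.8% of these sites lay above 1. The 111 sites at gaAcc had a median of 2.19. Scores above 1 cannot be fractions of modified molecules, and a score at one motif cannot be set against a score at another.

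A score of at least 0.1 was taken as a call at a later stage, and exact Clopper-Pearson intervals at 95% cover the counting of sites only. Sites of 1 gene share a transcript, so these intervals are too narrow for independent transcripts. MII oocytes had calls at 5072 of the coding DRACH sites, 43.7% (interval 42.8 to 44.6), beside 34.1% of all 60417 GV-called sites, which include them. In 2-cell embryos 967 were called, 8.34% (7.84 to 8.86), beside 7.39% of all GV-called sites. The 4-cell stage had 3089 calls, 26.6% (25.8 to 27.5), beside 22.7%. The 8-cell stage had 1330 calls, 11.5% (10.9 to 12.1), beside 9.32%. The 16-cell stage had 854 calls, 7.36% (6.90 to 7.85), beside 6.01%. Morulae had 502 calls, 4.33% (3.97 to 4.72), beside 4.42%, and blastocysts had 913 calls, 7.87% (7.39 to 8.38), beside 7.64%. Counted by site, coding DRACH sites thus lay above the background from MII to the 16-cell stage, while their intervals in morulae and blastocysts included the background. With each gene counting equally their share was 35.1% at MII, 6.16% at 2-cell, 20.8% at 4-cell, 8.96% at 8-cell and 7.40% at 16-cell stages. The background was not taken over genes, so the comparison holds for pooled sites only.

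Counted by gene, 2192 of the 4001 genes (54.8%) had at least 1 of these sites called at MII, and 592 (14.8%) had one in 2-cell embryos. The 4-cell stage had 1515 such genes (37.9%), the 8-cell stage 786 (19.6%) and the 16-cell stage 541 (13.5%). Morulae had 351 (8.77%) and blastocysts 573 (14.3%). The 2-cell stage stood between MII and 4-cell stages with more calls, and 2427 of the 4-cell calls (78.6%) had no 2-cell call at the same adenosine. The remaining 662 (21.4%) had a 2-cell call, beside 8.34% of all coding DRACH sites. Sites called in 4-cell embryos were thus called in 2-cell embryos more often than the sites in general.

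**Figure D1:**
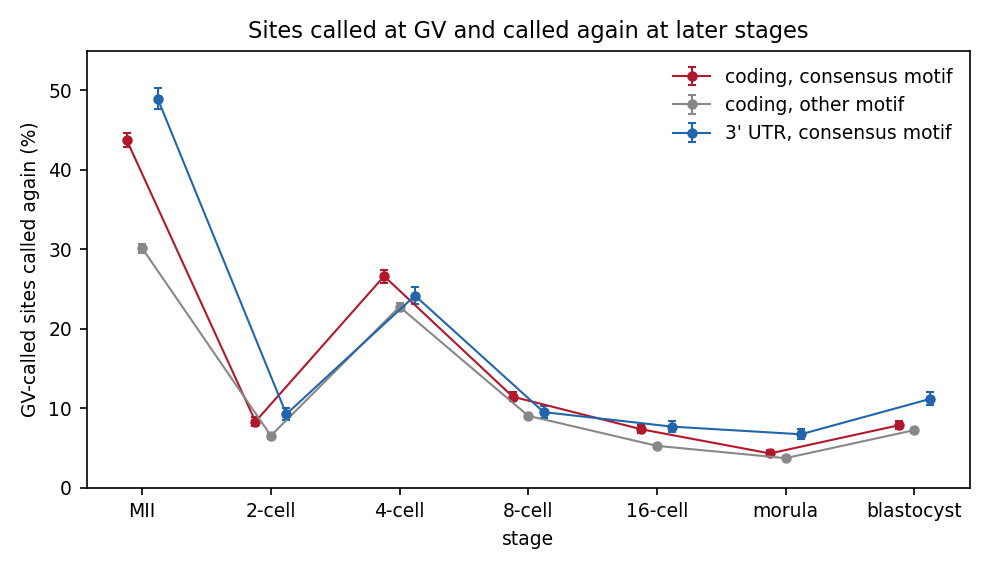
The plot shows the percentage of GV-called sites called again at each later stage (vertical axis, percent; horizontal axis, stage) for coding DRACH sites, coding sites outside DRACH and DRACH sites in 3′UTRs, with exact 95% intervals that cover the counting of sites only. All 3 kinds have a dip in 2-cell embryos, where coding DRACH sites are at 8.34%, and a second maximum in 4-cell embryos, where they are at 26.6%.

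Median scores over all motifs are given as a description, since the mix of motifs differed by stage. The median score of called sites was 0.282 at GV, 0.281 at MII, 0.323 in 2-cell embryos, 0.238 in 4-cell embryos, 0.299 in 8-cell embryos and 0.374 in 16-cell embryos. It was 0.358 in morulae and 0.357 in blastocysts. Site by site, the median log2 ratio of the later score to the GV score was -0.18 at MII and 0.14 in 2-cell embryos. It was -0.29 in 4-cell embryos, 0.0028 in 8-cell embryos and 0.18 in 16-cell embryos, and it was 0.24 in morulae and 0.25 in blastocysts. At GGAC motifs alone it was -0.025 in 2-cell embryos, -0.62 in 4-cell embryos and -0.37 in 8-cell embryos, so the ratio near 0 of the 8-cell stage was not found at those motifs. In 4-cell embryos 34.6% of the shared sites scored higher than at GV, and in blastocysts 63.9% did. Sites whose later score lay under 0.1 are left out of these ratios, which limits how low they can be, most of all for motifs with low scores.

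Compared with the 26962 coding GV sites outside DRACH, the DRACH sites were more often called again. Median GV scores were 0.282 at DRACH sites and 0.189 outside DRACH, which are different motifs, so these scores are given as a description only. Of the coding DRACH sites 43.7% were called at MII, against 30.1% of those outside DRACH, a difference of 13.6 percentage points (Newcombe interval 12.5 to 14.6). The difference was 1.78 points in 2-cell embryos, 3.85 in 4-cell embryos, 2.40 in 8-cell embryos and 2.08 in 16-cell embryos. In morulae it was 0.59 points (0.17 to 1.04), and 1.70 with each gene counting equally. In blastocysts it was 0.61 points (0.043 to 1.20), 2.83 with each gene counting equally and 0.15 at the same GV score class, so its size depended on the setting. In the 3311 genes that held both kinds, the DRACH share at MII was the higher one in 1646 genes and the lower one in 889.

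Compared with DRACH sites in 3′UTRs, the pooled coding sites were called less often at MII and in morulae and blastocysts, and more often in 4-cell and 8-cell embryos. The coding sites had a median GV score of 0.282, against 0.391 at the 5846 GV-called DRACH sites in 3′UTRs. At MII 43.7% of coding and 49.0% of 3′UTR sites were called, a difference of -5.24 points (-6.80 to -3.67). The 2-cell shares were 8.34% and 9.27%, a difference of -0.93 points (-1.85 to -0.05). In 4-cell embryos 26.6% of coding and 24.2% of 3′UTR sites were called, a difference of 2.45 points (1.08 to 3.8). In 8-cell embryos the shares were 11.5% and 9.53%, a difference of 1.94 points (0.98 to 2.88). In 16-cell embryos they were 7.36% and 7.70%, and the difference of -0.33 points had an interval that included 0 (-1.18 to 0.48). In morulae the shares were 4.33% and 6.74%, a difference of -2.41 points (-3.17 to -1.69). In blastocysts they were 7.87% and 11.2%, a difference of -3.30 points (-4.26 to -2.37).

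At MII, in 4-cell and 8-cell embryos, in morulae and in blastocysts the differences kept their sign where motif or gene was shared. With both regions weighted to the same 5-base motifs, the difference was -3.96 points at MII, 2.49 in 4-cell embryos, 2.02 in 8-cell embryos, -2.18 in morulae and -2.70 in blastocysts. In the 1955 genes with coding and 3′UTR DRACH sites, each gene counting equally, it was -6.60, 3.34, 1.82, -3.29 and -4.59 points at those stages. The 2-cell difference was -0.75 points at the same motifs and -0.16 over genes, with the coding share the higher one in 317 genes and the lower one in 243, so no direction is given for that stage. At the same GV score class the MII difference was -3.04 points, and with a score limit of 0.2 the 4-cell difference was 1.33 points. In 8-cell embryos the coding share was the higher one in 399 of these genes and the lower one in 253. In blastocysts it was the higher one in 165 and the lower one in 266. Of the 9 motifs with at least 100 sites in both regions, the coding sites had the higher share in 8-cell embryos in 9, in 4-cell embryos in 6, at MII in 2 and in morulae in 1. The median GV score was lower at the coding sites in all 9 of these motifs.

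**Figure D2:**
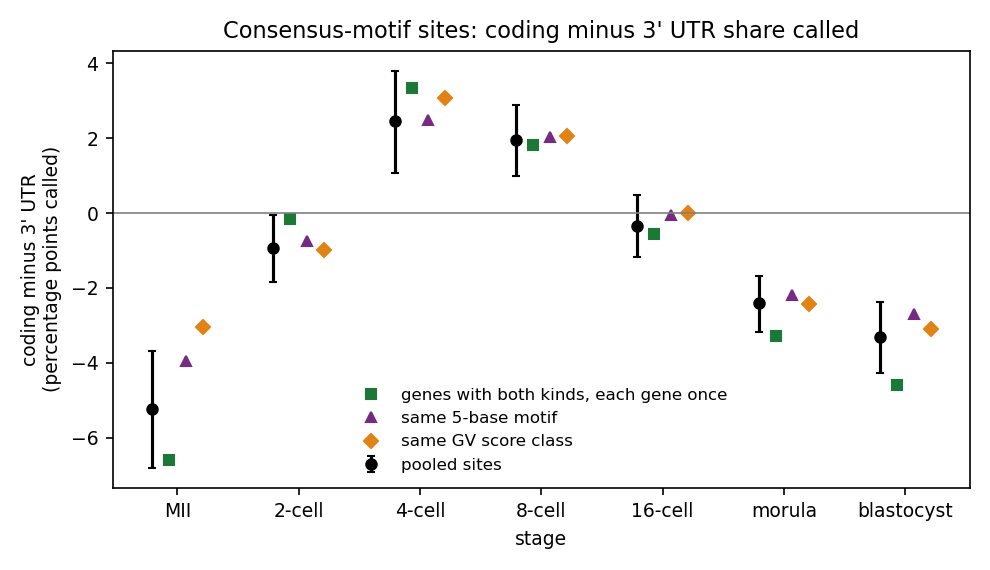
The plot shows the difference in percentage points between coding and 3′UTR DRACH sites called at each later stage, for all sites with Newcombe 95% intervals, for genes that hold both kinds with equal weight per gene, for both regions at the same 5-base motif and at the same GV score class. Points above 0 mean a higher share at coding sites, as in 4-cell embryos (2.45 points for all sites), and points below 0 a lower one, as in blastocysts (-3.30 points).

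Motifs also differed in how often their coding sites were called again. At MII the share was 51.3% at ggAct (interval 49.1 to 53.6), 47.2% at agAct, 47.3% at ggAcc and 44.3% at agAcc. It was 40.1% at ggAca (37.7 to 42.7), whose GV scores were far higher. The lowest shares at MII among the 8 motifs with most sites were 26.9% at tgAca (23.7 to 30.4) and 25% at tgAcc (20.6 to 29.8). In 4-cell embryos agAcc stood at 31.6% (29.7 to 33.6) and tgAca at 16.6% (14.0 to 19.6). In blastocysts the order was another, with agAct at 10.7% (9.5 to 12), agAcc at 8.28%, ggAct at 7.98%, ggAca at 6.00% and ggAcc at 5.58% (4.23 to 7.2).

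Scores at the sites called again moved by motif as well. In 4-cell embryos the median log2 ratio to GV was -0.75 at ggAca over 361 sites, -0.63 at ggAct over 587 and -0.34 at agAct over 667, while it was 0.0046 at agAcc over 699. In blastocysts it was 0.44 at ggAca over 91 sites, 0.39 at ggAct over 157, 0.22 at agAct over 260 and 0.12 at agAcc over 183. The agAcc sites scored near the calling limit, which bounds how far they could fall. Class 3 of 4 classes of GV score, low to high, was also taken alone. There the 4-cell ratio was -0.34 at agAcc, -0.63 at agAct, -0.67 at ggAct and -0.02 at ggAca. This class lay above the upper quartile of agAcc (0.258) and below the median of ggAca (1.19). It therefore took different parts of each motif's range, and no order of motifs is read from it.

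The share called at MII was higher at sites with higher GV scores, whereas the blastocyst shares differed little by GV score. In 4 classes of equal size by GV score, low to high, 34.5%, 44.6%, 44.6% and 51.1% of the coding DRACH sites were called at MII. With the classes set within each motif the shares at MII were 33.0%, 44.8%, 47.5% and 49.6%. In 4-cell embryos the classes had 23.4%, 27.8%, 26.4% and 29.0%. In blastocysts they had 7.46%, 8.54%, 7.89% and 7.60%, and the lowest and the highest class had overlapping intervals (6.53 to 8.48 and 6.66 to 8.63).

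**Figure D3:**
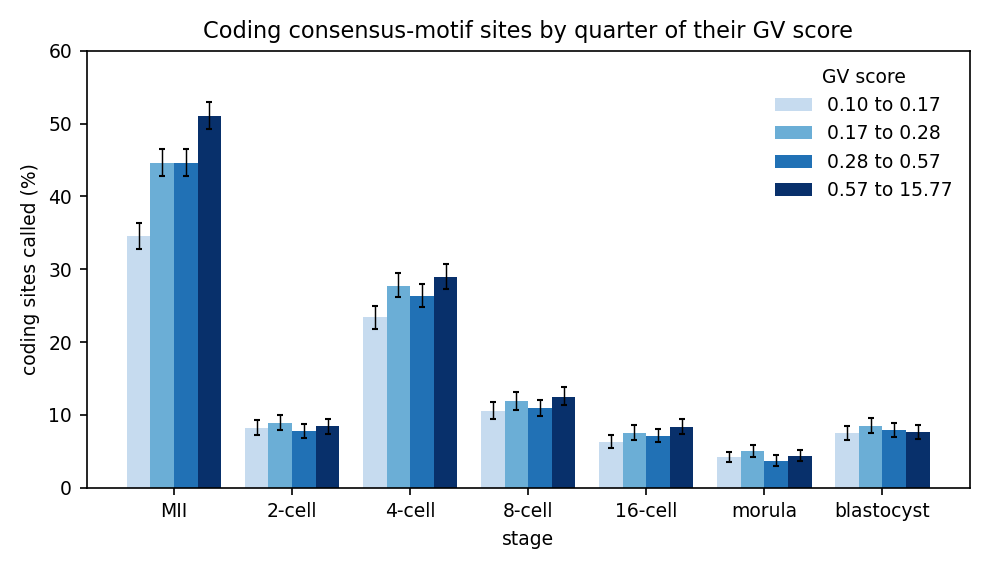
The plot shows the percentage of coding DRACH sites called at later stages (vertical axis, percent) by class of GV score (4 classes of equal size, low to high), with exact 95% intervals that cover the counting of sites only. At MII the highest class reaches 51.1%, whereas the 4 blastocyst values lie between 7.46% and 8.54%.

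Coding sites near called sites of the 3′UTR were called again more often at MII. Of the coding sites within 500 bases of the nearest GV-called 3′UTR site of their gene, counted on the genome with introns, 1595 in all, 58.3% were called at MII (interval 55.8 to 60.7). Sites more than 500 and up to 2000 bases away had 52.7%, sites beyond that and up to 10000 bases away 46.3% and sites farther than 10000 bases 44.2% (42.5 to 45.9). The 3139 sites in genes with no called 3′UTR site had 30.1% (28.5 to 31.7). The 2-cell stage had 12.3% within 500 bases, 8.90% beyond 10000 bases and 3.28% with no called 3′UTR site. Blastocyst shares had no such order by distance, with 9.53% within 500 bases, 7.70% up to 2000 bases, 9.57% up to 10000 bases, 5.58% beyond 10000 bases and 8.28% with no called 3′UTR site. The distance groups also differed in GV score. Its median was 0.358 within 500 bases, 0.316 up to 2000 bases, 0.218 up to 10000 bases and 0.240 beyond 10000 bases. With no called 3′UTR site it was 0.350. RNA level was not available, and the part of GV score or RNA level in these shares was not tested.

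Calls at neighbouring coding sites of a gene went together. There were 7596 pairs of neighbours in 2391 genes, with a median of 522 bases between them on the genome. In blastocysts a site was called in 39.6% of cases when its neighbour was called and in 4.85% when it was not. At MII the same shares were 56.3% and 41.0%, in 2-cell embryos 28.4% and 7.51%, and in 4-cell embryos 43.5% and 24.1%. They were 29.2% and 10.5% in 8-cell embryos, 31.8% and 5.38% in 16-cell embryos, and 31.2% and 2.94% in morulae. In blastocysts, pairs up to 50 bases apart had 45.2% and 4.46%, and pairs over 5000 bases apart still had 32.3% and 4.22%. At all 7 later stages, a site was called more often when its neighbour was.

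Over the 8 stages, 5078 coding DRACH sites (43.8%, interval 42.9 to 44.7) were called at GV alone. That share was 54.2% of the coding sites outside DRACH and 40.3% of the 3′UTR DRACH sites. Calls at GV and MII alone were found at 2063 sites, and calls at GV, MII and 4-cell alone at 1039. The sites without a break between GV and their last call numbered 7797, and 3800 (32.8%) had a gap. The 7797 include the 5078 called at GV alone, which cannot have a gap. The 32.8% therefore understates how often sites with a later call had one. Blastocyst calls had no call from the 2-cell stage to the morula at 265 sites (29.0%), and 168 of these were not called at MII either. Of all coding DRACH sites, the 43.8% called at GV alone and the 17.8% at GV and MII alone also had none there. Lack of a call at those stages was thus less frequent at blastocyst calls than over all sites. Of the blastocyst calls 378 (41.4%) were also called in 4-cell embryos, beside 26.6% of all coding DRACH sites. Blastocysts and morulae shared 297 sites. These were 32.5% of the blastocyst calls, while 4.33% of all sites were called in morulae. They were 59.2% of the morula calls, while 7.87% of all sites were called in blastocysts.

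Only 45 coding DRACH sites (0.388%, interval 0.283 to 0.519) were called at all 8 stages, in 39 genes. The same pattern was found at 0.230% of the coding sites outside DRACH and at 0.428% of the 3′UTR DRACH sites. By motif, 15 of the 45 were agAcc, 12 agAct, 6 ggAca and 6 ggAct. The ubiquitin gene UBB had 3 of its 5 coding sites among them, and the histone gene H3C6, the RNA-binding protein genes NUFIP2 and PCBP1 and 1 gene without a symbol had 2 each. Histone symbols numbered 6, with 7 of the sites. Other genes with 1 such site included the glycolytic enzyme gene GAPDH, the elongation factor gene EEF2, the citrate synthase gene CS, the chaperone genes HSPA8, HSP90AA1 and DNAJA1, the mitotic kinase gene AURKA, the pluripotency factor gene SALL4 and the ribosomal protein genes RPL7A and RPL28. UBB, the histones, the tubulins TUBA1B and TUBA1C, GAPDH and the ribosomal proteins have near-identical copies or pseudogenes, and how reads were split between copies is not given, so their sites are uncertain.

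Median scores over these 45 sites differed little by stage, while upper quartiles ranged from 0.447 in 4-cell embryos to 1.08 in blastocysts and single sites varied more. The medians were 0.265 at GV, 0.219 at MII, 0.268 in 2-cell embryos, 0.214 in 4-cell embryos, 0.256 in 8-cell embryos and 0.251 in 16-cell embryos. They were 0.267 in morulae and 0.280 in blastocysts. The highest log2 ratio of blastocyst to GV score among them was 1.08, at a gaAcc site of RPIA, an enzyme gene of the pentose phosphate pathway. In order of stage its scores were 2.15, 1.93, 1.86, 3.53, 2.73, 4.79, 2.62 and 4.54. A ggAca site of PCBP1 scored 2.40 in blastocysts and 1.51 at GV, with its lowest score of 0.191 in 2-cell embryos. The lowest ratio, -0.61, was at a ggAca site of EEF2, which scored 1.35 in blastocysts and 2.06 at GV, with its highest score of 3.26 in 2-cell embryos. A gaAcc site of EZR, which links the cell cortex to the membrane, scored 1.31 in blastocysts and 1.51 at GV, with 0.516 in morulae.

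The single highest GV score, 15.8, was at a taAcc site of FASN, the fatty acid synthase gene. This site was listed at 0 from MII to the 8-cell stage and scored 11.2 in 16-cell embryos, 4.97 in morulae and 9.81 in blastocysts. The other 9 of the 10 highest sites had no call after the 4-cell stage, which was also the course of most coding DRACH sites. Over all of them the last call was at GV in 43.8%, MII in 17.8%, 2-cell in 1.80% and 4-cell in 16.3%. The gaAcc site of TPST2, a sulfotransferase gene, scored 10.1 at GV and was listed at 0 at all later stages. A ggAca site of KLHL18 scored 9.13 at GV, 2.45 at MII and 1.05 in 4-cell embryos, and was listed at 0 at the other stages. A taAcc site of PARD3B, a cell polarity gene, scored 9.16 at GV, 6.42 at MII and 9.21 in 4-cell embryos.

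Most genes had few of these sites. The median gene had 2, 1610 genes (40.2%) had 1, and 266 genes had at least 8, with 2940 sites (25.4%) between them. CENPF, a kinetochore protein gene, and PLEKHG1 had the most with 27 each. NHSL1 had 26, CHAF1A, a chromatin assembly subunit gene, TCF20, a transcriptional regulator gene, and TICRR, a replication initiation gene, 21 each. ARID1A, a subunit gene of a chromatin remodelling complex, the spectrin gene SPTBN1 and SVIL, an actin-binding protein gene, had 20 each, and DLG5, a polarity scaffold gene, had 19. At MII 2 of the 266 genes had no call, and in blastocysts 202 (75.9%) had none.

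The genes with most sites were largely without calls late in the series, and so were genes in general. In blastocysts 573 of all 4001 genes (14.3%) had a call, and 202 of the 266 genes with at least 8 sites (75.9%) had none. PLEKHG1 had 24 sites called at MII, 5 in 2-cell embryos, 16 in 4-cell embryos and 2 in 8-cell embryos, and 0 from the 16-cell stage on. NHSL1 had 19, 1, 11 and 1 at those stages and 0 afterwards. CENPF had 16 at MII, 3 in 2-cell embryos, 7 in 4-cell embryos, 2 in 8-cell embryos and 0 in 16-cell embryos, then 2 in morulae and 1 in blastocysts. Among genes with a symbol, CHAF1A had the most calls beyond the overall share in 8-cell embryos, with 11 of 21 sites called. It had 13 at MII, 7 in 2-cell embryos, 12 in 4-cell embryos, 3 in 16-cell embryos and 1 in morulae, and 0 in blastocysts. CKAP5, a gene for a microtubule polymerase of the spindle, had 10 of 18 at MII, 1 in 4-cell embryos and 0 at the other later stages. Among the 10 genes named above for most sites, all with a symbol, ARID1A was the only one with more than 1 blastocyst call, 6 of 20. KIF24 and SHROOM3 tied with DLG5 at 19 sites and had 0 and 3 blastocyst calls.

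At MII the number of calls fell furthest below the number that the overall share gives in SHROOM3, which shapes epithelial cells (3 of 19), ALMS1, a centrosomal protein gene (1 of 14), and SYTL2, a gene of vesicle traffic (2 of 16). KMT2C, a histone methyltransferase gene, had 15 of 18 at MII, 0 in 2-cell embryos, 7 in 4-cell embryos and 0 in 8-cell embryos, and 3 in blastocysts. In 4-cell embryos the maternal-effect gene NLRP14 had 12 of 16 sites called and ZCCHC14 11 of 16, while the nuclear pore gene RANBP2 had 0 of 15. RANBP2 had 5 of 15 called in blastocysts.

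Of the 573 genes with a blastocyst call, 150 held 50% of the 913 calls, and at MII 448 of 2192 genes held 50% of the 5072 calls. DAG1, which encodes dystroglycan, a receptor for the extracellular matrix, had 10 of 17 sites called in blastocysts, 9 in 16-cell embryos and 0 in morulae. PRPF8, a core spliceosome gene, had 7 of 11 in blastocysts, 2 at MII and 0 from the 2-cell to the 8-cell stage. Next were 6 of 8 in CTNNA1, the gene for alpha-catenin of adherens junctions, 6 of 9 in ACSL3, which activates fatty acids, 6 of 9 in the acetyltransferase gene EP300, 6 of 11 in ZBTB10 and 6 of 13 in SRRM2, a splicing factor gene. NUFIP2 had 6 of 14 and CTNND1, the gene for p120-catenin, 5 of 10. CTNNA1 had 3 of 8 in morulae and 0 in 16-cell embryos, and CTNND1 had calls at every stage, with 7 each at MII, 2-cell and 4-cell stages. ZNF574, a zinc finger gene, had 7 of 9 called in 16-cell embryos and 0 in morulae and blastocysts.

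**Figure D4:**
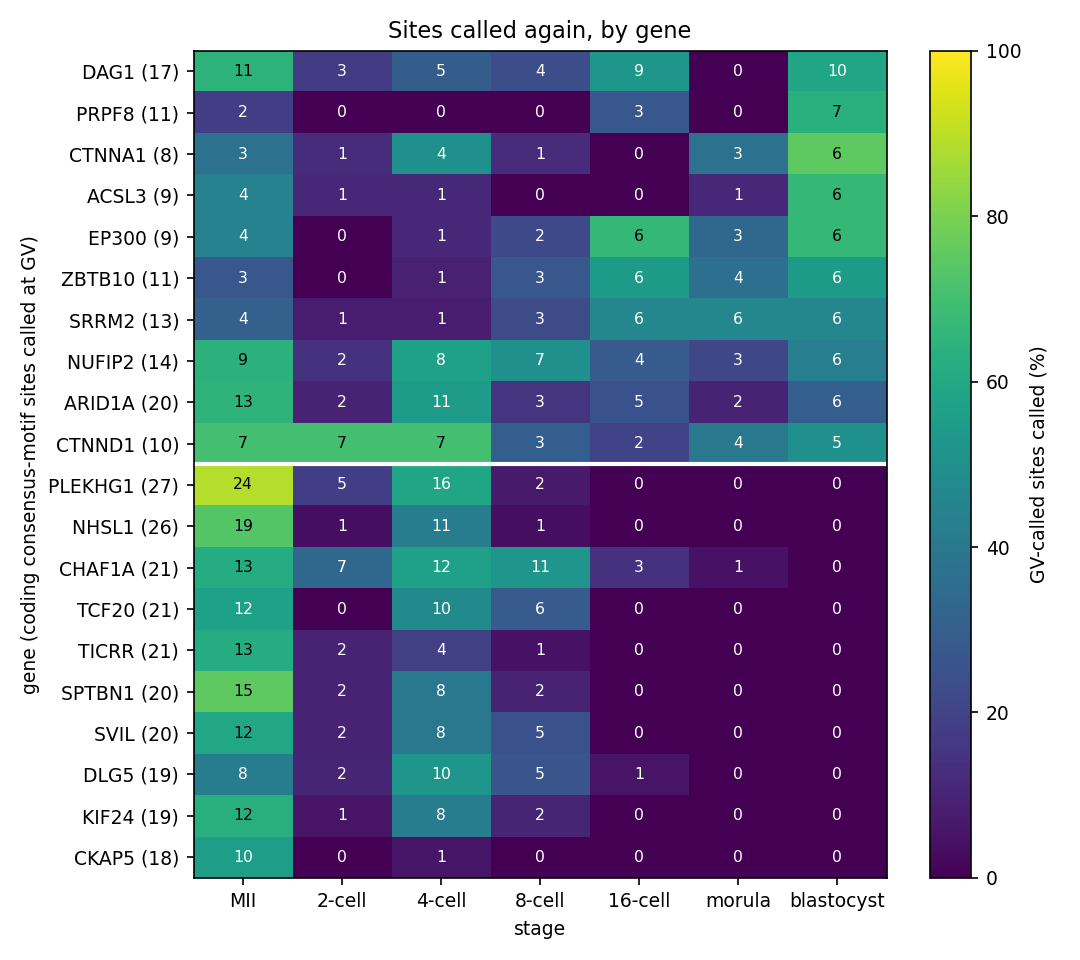
The heat map shows the percentage of each gene's GV-called coding DRACH sites that were called at each later stage (columns, MII to blastocyst; rows, the 10 genes highest by blastocyst calls above a white line and the 10 lowest below it). Numbers in brackets are GV-called sites, numbers in cells are called sites and the colour is the percentage. The ranking takes calls minus the number the overall share gives, and 202 of the 266 ranked genes had no blastocyst call. The 10 lowest are therefore the genes with most GV sites among those without a call. PLEKHG1 and NHSL1 have no call from the 16-cell stage on, whereas PRPF8 has calls mainly in blastocysts, with 7 of 11.

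BMP15, an X-linked growth factor gene of the oocyte (ENSBTAG00000045782), was followed site by site. It had 10 coding DRACH sites at GV, of which 10 were called at MII, 9 in 2-cell embryos, 8 in 4-cell embryos, 8 in 8-cell embryos, 6 in 16-cell embryos and 2 in morulae, and 0 in blastocysts. The sites printed here are the 2 with its highest GV scores and 1 with a low score, at another motif. The genome build of the positions is not given in the sources used here, and the strand is plus.
BMP15 site 6, chrX:88809955-88809955: ggAca
BMP15 site 7, chrX:88810097-88810097: ggAca
BMP15 site 3, chrX:88809757-88809757: agAcc
In order of stage, site 6 scored 6.14, 2.91, 1.15, 0.758, 0.772 and 0.365 up to the 16-cell stage and was listed at 0 in morulae and blastocysts. Site 7 scored 6.74, 2.96, 0.374, 0.405 and 0.399 up to the 8-cell stage and was listed at 0 afterwards. Both sites scored highest at GV and next at MII, with all later scores below these. They were picked for high GV scores, which favours that order, and not all sites of the gene had it. Site 3 scored 0.130, 0.117, 0.164, 0.110, 0.155 and 0.113 up to the 16-cell stage, so that all its scores above 0 lay between 0.110 and 0.164. These scores lay near the calling limit of 0.1. They cannot be set against those of the ggAca sites, since the motifs differ. The other agAcc sites of the gene also kept scores between 0.0985 and 0.303 wherever they were above 0.

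DAG1 (ENSBTAG00000011580, chromosome 22, minus strand) had another course. Its first site in the table, a ggAca at chr22:50616747-50616747, scored 3.44 at GV and 2.07 at MII, was listed at 0 from the 2-cell to the 8-cell stage and in morulae, and scored 5.43 in 16-cell embryos and 6.03 in blastocysts. A second ggAca site, chr22:50617539-50617539, scored 1.35 at GV, 2.38 at MII, 0.953 in 4-cell embryos, 1.52 in 16-cell embryos and 2.78 in blastocysts, and was listed at 0 at the other stages. Another ggAca site, chr22:50617698-50617698, scored 1.45 at GV and 1.12 in 4-cell embryos and was listed at 0 at all other stages. In PRPF8 (ENSBTAG00000011488, chromosome 19, minus strand) the blastocyst scores were low at all 7 called sites, between 0.157 and 0.393. Its ggAca site, chr19:22773346-22773346, scored 1.35 at GV and was listed at 0 at every later stage.

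Gene lists by function were followed in the same way, and each is given beside the share of all coding DRACH sites above. The 22 oocyte and maternal-effect genes with a coding DRACH site had 126 of them, and 75.4% were called at MII (interval 66.9 to 82.6). They stood at 46.0% in 2-cell embryos (37.1 to 55.1), 60.3% in 4-cell embryos, 34.1% in 8-cell embryos (25.9 to 43.1), 11.1% in 16-cell embryos and 3.17% in morulae, and 0 of the 126 were called in blastocysts, with an exact upper bound of 2.89%. GDF9, an oocyte growth factor gene, had 9 of 10 at MII, 5 in 4-cell embryos and 6 in 8-cell embryos and 0 from the 16-cell stage on. MOS, the kinase gene of meiotic arrest, had 4 of 4 at MII and 2-cell stages and 1 in 16-cell embryos. NLRP5, a maternal-effect gene, had 11 of 13 at MII, 4 in 8-cell embryos and 0 in 16-cell embryos, and NLRP9 had 11 of 16 at MII and 5 in 8-cell embryos.

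Cytosolic ribosomal protein genes went the other way, with 20 sites in 17 genes, all of the large subunit. Their share was 50% at MII (interval 27.2 to 72.8), 10% in 2-cell embryos, 25% in 4-cell embryos, 55% in 8-cell embryos, 75% in 16-cell embryos and 75% in morulae, and 85% in blastocysts (62.1 to 96.8). RPL35 had 2 of 2 and RPL13A 2 of 2 sites called in blastocysts, and RPL29 had 0 of 1. Their copies and pseudogenes make these sites uncertain.

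Splicing and RNA-binding genes had 75 sites, with 37.3% called at MII, 6.67% in 2-cell embryos, 24.0% in 4-cell embryos, 22.7% in 8-cell embryos, 37.3% in 16-cell embryos and 21.3% in morulae, and 46.7% in blastocysts (interval 35.0 to 58.6). HNRNPU had 5 of 5 and PCBP1 5 of 6 called in blastocysts, whereas SF3B3 and PRPF6, both of the spliceosome, had 0 of 5 each. The junction and cavitation genes, which serve the epithelium of the blastocyst, had 60 sites, with 51.7% at MII, 13.3% in 16-cell embryos, 25% in morulae and 41.7% in blastocysts (29.1 to 55.1). The tight junction genes OCLN and TJP1 had 4 of 11 and 2 of 8 in blastocysts, and CDH1, the gene for E-cadherin, had 3 of 6.

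Cytosolic chaperone genes had 78 sites, with 65.4% at MII, 29.5% in 2-cell embryos, 47.4% in 4-cell embryos, 30.8% in 8-cell embryos, 29.5% in 16-cell embryos and 28.2% in morulae, and 35.9% in blastocysts (interval 25.3 to 47.6). HSP90AA1 had 7 of 7 called in blastocysts, HSPA8 5 of 7 and DNAJB1 0 of 7, although DNAJB1 had 6 of 7 in 16-cell embryos. The sterol and lipid synthesis genes had 25 sites, with 8% in morulae and 52% in blastocysts (31.3 to 72.2), where ACSL3 held 6 and HMGCS1 3 of the 13 calls. The nuclear-encoded oxidative phosphorylation genes had 36 sites, 2.78% in 2-cell embryos and 38.9% in blastocysts (23.1 to 56.5), spread over 14 genes with 1 call each. Translation factor genes stood at 36.4% of 88 sites in blastocysts and genes of folding in the endoplasmic reticulum at 30.4% of 46. Cortical cytoskeleton genes stood at 20.5% of 112 and chromatin and DNA methylation genes at 14.4% of 194. G2 and mitosis genes stood at 9% of 100 (4.20 to 16.4) and mRNA decay genes at 7.02% of 57 (1.95 to 17.0). The intervals of these last 2 lists included the 7.87% of all coding DRACH sites called in blastocysts.

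**Figure D5:**
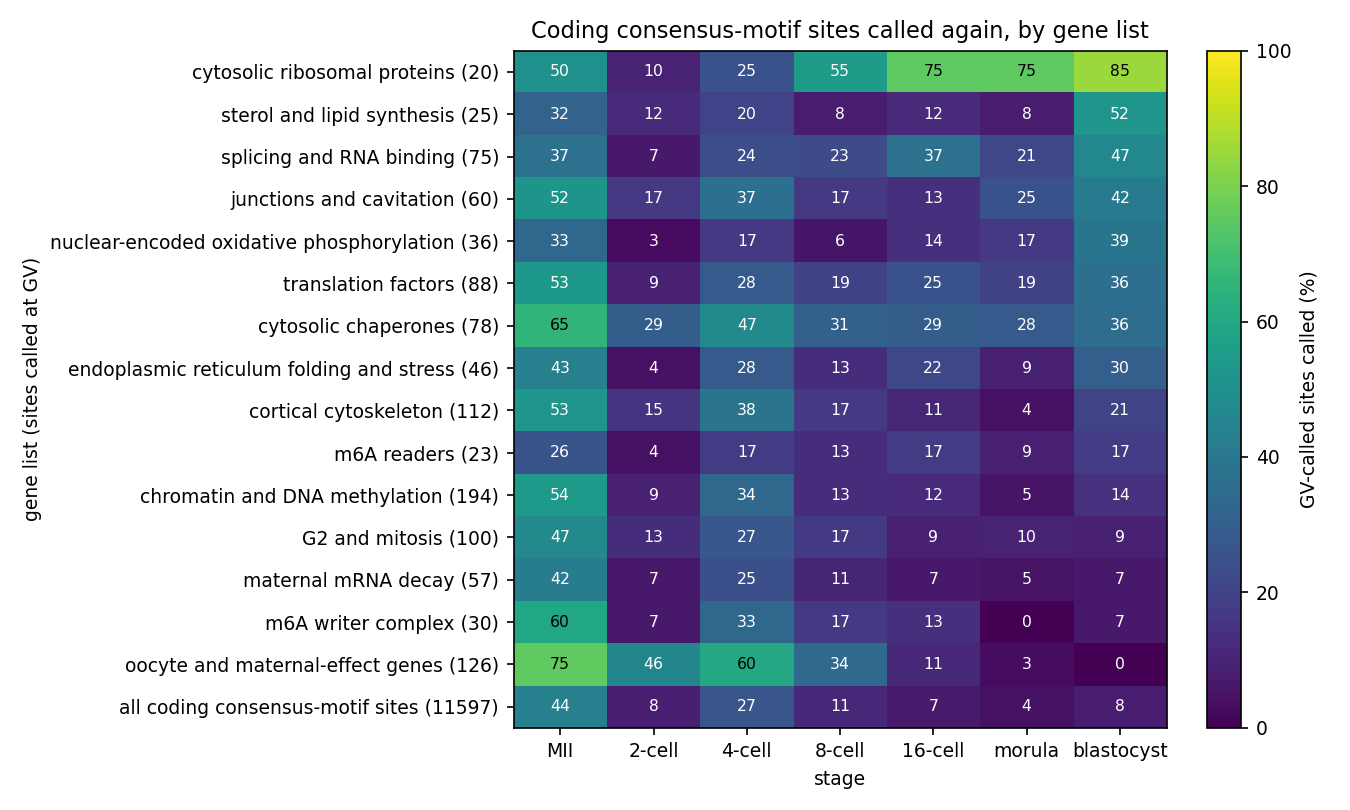
The heat map shows the percentage of the GV-called coding DRACH sites of each gene list that were called at each later stage (columns, MII to blastocyst; rows, lists with their number of sites, and all coding DRACH sites at the bottom). Oocyte and maternal-effect genes stand at 75.4% at MII and at 0 in blastocysts, and cytosolic ribosomal protein genes at 50% at MII and 85% in blastocysts.

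The m6A machinery itself carried coding DRACH sites. The writer complex had 30 of them in 6 genes, with 60% called at MII (interval 40.6 to 77.3), 6.67% in 2-cell embryos, 33.3% in 4-cell embryos, 16.7% in 8-cell embryos, 13.3% in 16-cell embryos, 0 in morulae and 6.67% in blastocysts. RBM15B had 8 of 10 called at MII, WTAP 5 of 5, CBLL1 3 of 5 and RBM15 1 of 6, and the 2 blastocyst calls were in RBM15B. The reader genes had 23 sites in 6 genes, and 17.4% were called in blastocysts (interval 4.95 to 38.8). Of these 4 calls 3 were in YTHDF3 and 1 in HNRNPA2B1. In blastocysts the interval of the writer genes was 0.82 to 22.1. Both blastocyst intervals included the 7.87% of all coding DRACH sites. The eraser gene ALKBH5 had 3 sites, of which 1 was called at MII and 0 in blastocysts.

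The labelled cell types could be checked only by which genes carried sites. Of the 34 listed oocyte and maternal-effect genes, 22 carried coding DRACH sites at GV, among them BMP15, GDF9, NLRP5 and MOS. The others carried none. Of 15 markers of cumulus and granulosa cells, which surround the oocyte, 3 carried sites. HAS2 carried 7, and INHA and INHBA 1 each. Of these 9 sites 3 were called at MII, 1 in 2-cell embryos, 4 in 4-cell embryos, 1 in 8-cell embryos and 0 from the 16-cell stage on. Blood and sperm markers carried 0 sites. Of 14 pluripotency genes 2 carried sites, and SALL4 had 5 of 10 and SOX2 0 of 3 called in blastocysts. Of 13 trophectoderm genes 3 carried sites, CDX2, KRT19 and ELF3, with 4 sites in all and 1 blastocyst call, in KRT19.

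The order of the table shows that it lists the GV calls of all chromosomes, followed by minus-strand MII calls without a GV call that end within chromosome 1, at row 65535. The table used here is therefore held only in part, and coding DRACH sites first called after MII, other than in large-subunit ribosomal protein genes, were not analysed here. For minus-strand sites of chromosomes 10 to 19, where MII calls are listed in full apart from large-subunit ribosomal protein genes, 1841 coding DRACH sites were called at MII and 2337 at GV. Both stages shared 1031, which is 56.0% of the MII sites and 44.1% of the GV sites, and 810 were called at MII without a GV call. The median MII score was 0.243 at the sites with an MII and no GV call and 0.298 at the shared ones. The median GV score was 0.262 at the sites with a GV and no MII call and 0.335 at the shared ones, so at both stages the sites of 1 list alone had the lower scores.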

How the data were processed

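Total RNA of bovine oocytes and embryos was labelled and sequenced in 32 libraries. The submitters' processing notes name Trimmomatic 0.39 and STAR 2.5.3a. Information on the genome build, annotation, site caller and pooling of arms and replicates was not given in the sources used here. In the deposited table the authors give a score per adenosine and stage, with gene, region and motif. Its scale is not stated. Each of the 8 value columns stands for 1 stage, pooled, and 0 value columns had no stage.

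Coding DRACH sites with a GV score of at least 0.1 were followed through the later columns. Shares have exact Clopper-Pearson intervals, differences Newcombe intervals, both at 95% and for the counting of sites only. No test was possible, and no p-value is given. Gene symbols were checked against RefSeq names.

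Named genes have a symbol: the 10 with most sites, and, among genes with at least 8 sites, the 10 highest and 10 lowest by blastocyst calls minus the number the overall share gives, and 3 each way at other stages. As 202 of the 266 ranked genes had no blastocyst call, the number of GV sites alone set which were the 10 lowest at that stage. Sites are the 10 highest GV scores and, among those called at all stages, the 5 highest and 5 lowest ratios of blastocyst to GV score. Some are not reported here, and those given were picked from these with values in view. List members with at least 5 sites may be examples, and smaller ones were chosen after their values were seen, as were the genes named for calls at all 8 stages and the sites of BMP15, DAG1 and PRPF8. The members and the 20 gene lists were chosen with earlier results of these data known. Alternatives were other score limits, motifs, strands, gene weights and left-out genes. The calculations passed 6 of 6 checks on 20000 simulated sites. Scripts ran in Python 3.11.15 with pandas 2.3.3, numpy 2.4.6, matplotlib 3.10.9 and scipy 1.17.1.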

Additional observations from a re-analysis of the deposited data

How the results depend on the processing

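No paired analysis was possible because the table holds 1 pooled score per stage, and for the same reason no replicate was left out. The shares called at the 7 later stages stayed within their intervals on either strand alone, without the 10 genes with most sites, without ribosomal protein genes and without AGACA and GGACA.

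With each gene counting equally, the share was 35.1% at MII, 6.16% in 2-cell embryos, 20.8% in 4-cell embryos, 8.96% in 8-cell embryos, 4.82% in morulae and 8.68% in blastocysts. With a score of at least 0.2 at both stages it was 39.4%, 7.44%, 20.8%, 10.1%, 3.83% and 7.28% at those stages. With any later score above 0 it was 48.5% at MII, 30.3% in 4-cell embryos, 12.1% in 8-cell embryos and 8.48% in blastocysts. GGAC motifs alone had 46.6% at MII, 27.6% in 4-cell embryos and 6.78% in blastocysts.

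Median scores moved with the choice of motifs and limits. GGAC motifs alone had medians of 0.474 at GV, 0.424 at MII, 0.477 in 2-cell embryos, 0.305 in 4-cell embryos, 0.405 in 8-cell embryos, 0.604 in 16-cell embryos, 0.667 in morulae and 0.628 in blastocysts. A limit of 0.2 gave 0.443, 0.403, 0.399, 0.344, 0.368, 0.491, 0.460 and 0.498 in that order. Without AGACA and GGACA the medians were 0.252, 0.251, 0.297, 0.222, 0.275 and 0.335 up to the 16-cell stage and 0.319 in blastocysts. Over genes they were 0.298, 0.293, 0.362, 0.255 and 0.326 up to the 8-cell stage. The median log2 ratio of 2-cell to GV score was 0.14 at all motifs and -0.025 at GGAC motifs alone, and the cause was not tested. At GGAC motifs alone the ratio was -0.62 in 4-cell embryos and -0.37 in 8-cell embryos, and at a limit of 0.2 the 8-cell ratio was -0.14.

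The excess of coding DRACH over coding sites outside DRACH at MII was 12.2 points over genes, 12.3 at the same GV score class and 17.4 at a limit of 0.2. In 4-cell embryos it was 2.64 at the same GV score class. In 16-cell embryos it was 3.07 over genes and 2.68 at a limit of 0.2. Over genes it was 1.70 in morulae and 2.83 in blastocysts, where it was 0.15 at the same GV score class and 1.19 at a limit of 0.2. Against 3′UTR DRACH sites, the difference at MII was -3.04 points at the same GV score class and -2.30 at the same motif and class, an alternative chosen after seeing the data. Over genes it was -3.29 in morulae and -4.59 in blastocysts, and at a limit of 0.2 it was 1.33 in 4-cell embryos. The 2-cell difference was -0.16 over genes. The difference in 16-cell embryos, whose interval included 0 and which was 0.012 at the same GV score class, was not given a direction. Depth is unknown, so no limit of detection per site can be given.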
